A study of Mus musculus with 16 samples.

Results

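Grhl1, Grhl2, Grhl3, Ehf, Elf3, Esrp1, Esrp2, Ovol1, Trp63 and Tfap2c are 10 regulators of transcription and splicing that set the identity of epithelial cells. They were read from 23 probesets whose annotation gives only that gene symbol, out of 45037 probesets tested, and they are 10 of the 18193 genes with a probeset of their own. They were selected on earlier results of these arrays, with their log2 differences between the histological classes and from control skin in view, so those differences, and the counts of genes called from them, describe the choice, test nothing, and are printed without the p-value of any single gene. The lists of other genes used below were also chosen with earlier results known, so their counts and p-values in these comparisons test nothing either. The samples were 4 control skins of wild type adult mice, 7 tumors of k14Cre;p53loxP/loxP mice (p53 tumors) and 5 tumors of k14Cre;p53loxP/loxP;pRbloxP/loxP mice (pRbp53 tumors), all on the FVB background. The ages of single animals were not given. The p53 tumors comprised 3 poorly differentiated, 2 mixed, 1 undifferentiated and 1 spindle cell carcinoma, and the pRbp53 tumors 4 spindle cell carcinomas and 1 mixed tumor. The promoter of keratin 14 drives Cre in stratified epithelia, so the stroma of these tumors keeps both genes. Each sample was hybridised to 1 Affymetrix MOE430 2.0 array, and every level below is a log2 signal that can be compared between samples of the same probeset but not between genes.

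Grainyhead-like (Grhl) factors bind the regulatory regions of junction and barrier genes, and the Ets factors Ehf and Elf3 are found mostly in epithelial cells. Esrp1 and Esrp2 are RNA-binding proteins that direct the epithelial splicing of transcripts such as Fgfr2 and Cd44. Ovol1 is a zinc finger repressor that, in keratinocytes, goes with the exit from the cell cycle, Trp63 encodes p63, the master regulator of stratified epithelium, and Tfap2c encodes an AP-2 factor of epidermis and mammary gland. Zeb and Snail factors act in the opposite sense, as repressors of epithelial genes that bind the E-box CACCTG. The arrays were made from bulk tissue, so fewer cells of a type cannot be told apart from less RNA per cell. The probes lie near the 3' ends of transcripts and do not separate splice forms, and a low signal is not read as absence.

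Promoter sequence was at hand for Grhl1, Grhl3 and Elf3, from RefSeq on build GRCm38.p6, as windows of 300 bases that end 50 bases after a transcription start. No such sequence was at hand for the other members, so the 3 genes were not picked by their patterns in the tumors. A link of CACCTG to the level of a gene or of the repressors was not tested. Capitals mark CACCTG, searched on both strands.
Grhl1 (chr12:24572037-24572336, plus strand): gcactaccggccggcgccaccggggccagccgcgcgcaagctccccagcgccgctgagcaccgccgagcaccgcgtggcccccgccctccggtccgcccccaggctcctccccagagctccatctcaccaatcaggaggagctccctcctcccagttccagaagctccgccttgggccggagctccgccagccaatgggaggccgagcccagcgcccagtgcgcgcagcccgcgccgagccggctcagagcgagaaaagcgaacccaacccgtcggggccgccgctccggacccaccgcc
Grhl3 (chr4:135573583-135573882, minus strand): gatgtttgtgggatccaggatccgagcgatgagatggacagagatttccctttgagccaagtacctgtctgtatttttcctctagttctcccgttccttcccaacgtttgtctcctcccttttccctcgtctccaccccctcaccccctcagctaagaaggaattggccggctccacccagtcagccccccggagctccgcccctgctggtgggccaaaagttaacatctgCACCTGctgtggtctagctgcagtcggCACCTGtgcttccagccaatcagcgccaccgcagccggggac
Elf3 (chr1:135258423-135258722, minus strand): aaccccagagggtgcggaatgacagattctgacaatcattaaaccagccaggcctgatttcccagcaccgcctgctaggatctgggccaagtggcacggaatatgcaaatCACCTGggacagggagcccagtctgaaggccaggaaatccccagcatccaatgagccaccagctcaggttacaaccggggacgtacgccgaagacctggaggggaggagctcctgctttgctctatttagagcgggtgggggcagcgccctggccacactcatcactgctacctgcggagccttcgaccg
The Grhl3 window held CACCTG at -19 and at 9 from the start, and the Elf3 window held it at -140. The Grhl1 window shown held none and was rich in CpG, with 35 CpG and 75.3% G and C, against a median of 7 CpG and 52.7% over all windows. A second Grhl1 window (chr12:24580469-24580768), not printed, held no CACCTG either and had 0 CpG and 51.3% G and C. CACCTG stood in 20.2% of 32851 mouse promoter windows of this length. CCGGTT, a part of the Grainyhead-like motif also searched on both strands, was in the Elf3 window and in 6.83% of all windows. These matches describe the letters alone.

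Array quality, tissue make-up and likeness of replicates bear on all the values. The 3' signal of actin exceeded its 5' signal by 1.33 in control skin 3 and 1.67 in p53 tumor 7, on the log2 scale, against 0.21 to 0.68 in the other arrays, a sign of RNA breakdown. Control skins 2 and 4 were the most alike pair of control arrays. The mean over 6 basal keratinocyte markers was 11.23 to 11.35 in control skin, 7.26 to 10.79 in the poorly differentiated, 7.15 to 11.68 in the mixed and 6.31 to 7.91 in the undifferentiated or spindle tumors. The control skins therefore carried keratinocyte markers as labelled, with skeletal muscle (13.42 to 13.69 over 6 markers) beside them. The labels do not state that each sample was a different animal, and the p-values cover no more than the variation among these samples.

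In the tumors the regulators followed histology. All 6 undifferentiated or spindle tumors lay below all 4 control skins for 9 of the 10 genes, as 13.5% of all genes did, all 3 poorly differentiated tumors kept most of them near or above the level of control skin, and the mixed tumors varied from gene to gene and from tumor to tumor. Elf3 was the exception, since its undifferentiated or spindle tumors overlapped control skin. Its control skins, at 5.49 to 5.73, were already close to the lowest Elf3 signal of any tumor, 5.29. Whether this probeset could show a fall from there was not tested. Trp63 had its own profile, with low signal in the poorly differentiated tumor p53 5, which kept Esrp1 and Tfap2c, and high signal in the mixed tumor p53 1, where 8 other genes were low.

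**Figure D1:**
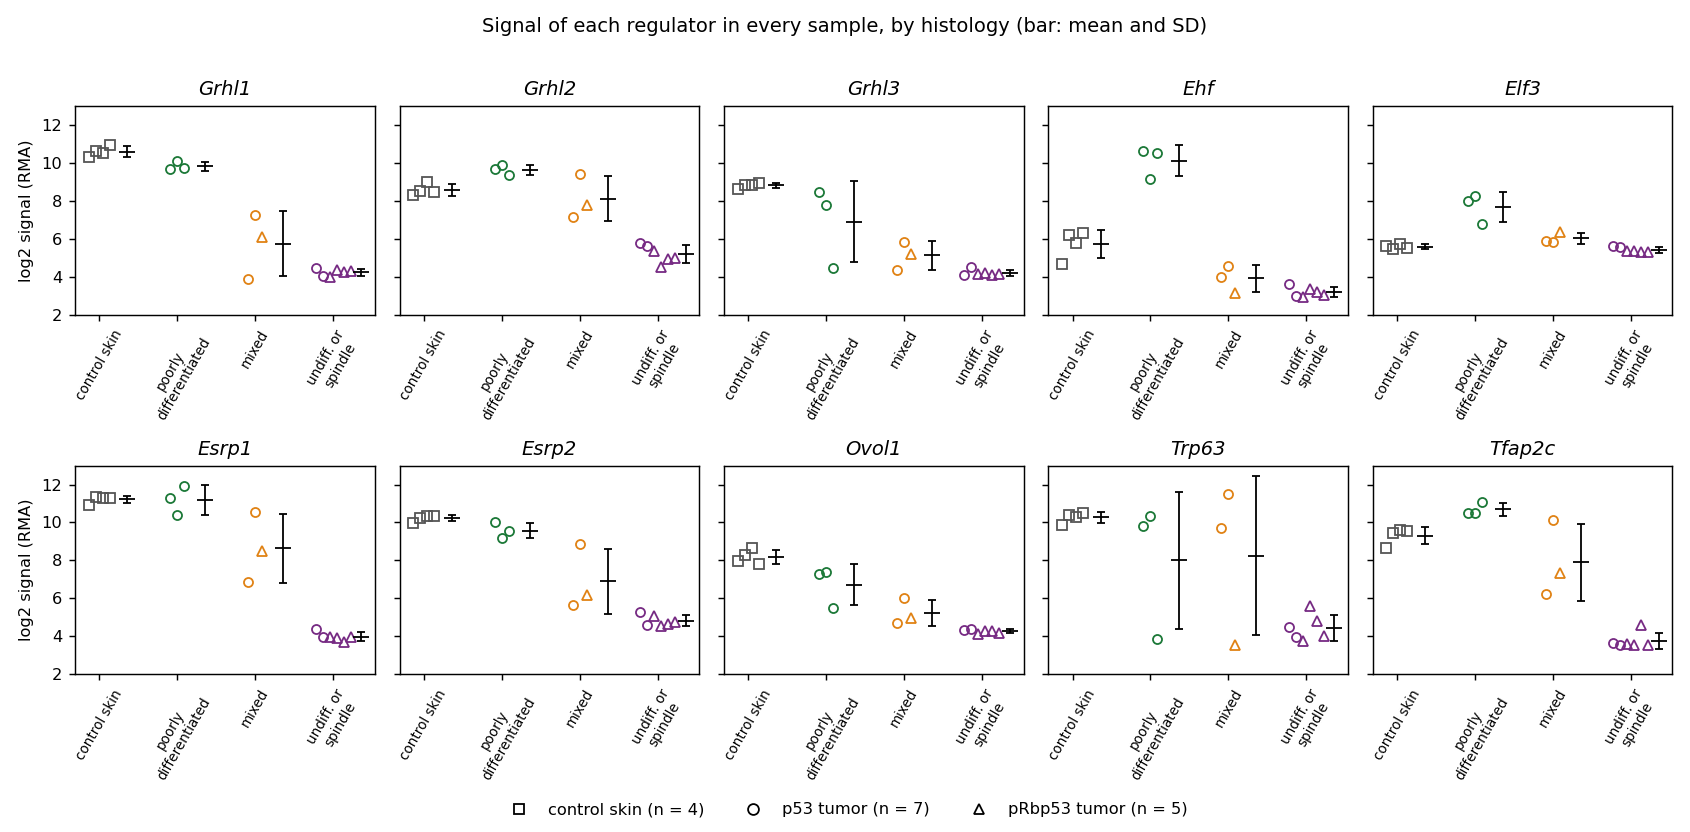
Log2 signal of each of the 10 genes (vertical axis, 1 panel a gene) in 4 control skins, 3 poorly differentiated, 3 mixed and 6 undifferentiated or spindle tumors, with 1 point a sample, the shape showing the genotype, and bars for the class mean and SD. In the undifferentiated or spindle tumors 9 genes lie below all control skins, and Elf3 is high only in the poorly differentiated tumors.

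The 3 Grhl factors were read first. Grhl1 measured 10.29, 10.63, 10.51 and 10.96 in control skins 1 to 4 and 9.65, 10.10 and 9.71 in the poorly differentiated tumors p53 2, p53 4 and p53 5. It was 3.89 in the mixed tumor p53 1, 7.23 in mixed p53 7 and 6.10 in mixed pRbp53 4, and ran from 4.0003 to 4.46 with a median of 4.28 in the 6 undifferentiated or spindle tumors. The last class overlapped neither control skin nor the poorly differentiated tumors, while the mixed tumor p53 1 lay below every one of its 6 samples. From the poorly differentiated to the undifferentiated or spindle tumors Grhl1 was lower by 5.59 ± 0.14 (SE, n = 3 and 6), and the poorly differentiated tumors were already 0.78 ± 0.19 (SE) below control skin.

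Grhl2, which in mouse is required for closure of the neural tube, had another profile. It measured 8.29, 8.54, 9.002 and 8.49 in control skin and 9.68, 9.87 and 9.36 in the poorly differentiated tumors p53 2, p53 4 and p53 5. Its mixed tumors gave 7.15, 9.44 and 7.77 in p53 1, p53 7 and pRbp53 4, and the undifferentiated or spindle tumors ran from 4.52 to 5.76 with a median of 5.17. All 3 poorly differentiated tumors were thus above all 4 control skins, by 1.05 ± 0.21 (SE) on average, and all 6 undifferentiated or spindle tumors were below, by 3.38 ± 0.24 (SE). The other 3 probesets of Grhl2 were also lower in the undifferentiated or spindle than in the poorly differentiated tumors, but by 0.58 to 0.93 only. Between the undifferentiated or spindle tumors and control skin they differed by 0.21, -0.15 and -0.21.

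Grhl3, a family member that acts in formation of the skin barrier, measured 8.64, 8.84, 8.82 and 8.95 in control skin. The poorly differentiated tumors p53 2, p53 4 and p53 5 gave 8.45, 7.80 and 4.47, and the mixed tumors p53 1, p53 7 and pRbp53 4 gave 4.35, 5.86 and 5.20. The undifferentiated or spindle tumors ran from 4.10 to 4.49 with a median of 4.14. One poorly differentiated tumor, p53 5, therefore had Grhl3 inside the range of the undifferentiated or spindle class, and the classes overlapped. The difference between these classes, -2.71 ± 0.73 (SE), became -3.93 without p53 tumor 5.

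Both Ets factors, like Grhl2, were highest in the poorly differentiated tumors. Ehf measured 4.68, 6.20, 5.77 and 6.29 in control skin, 10.61, 9.17 and 10.55 in p53 2, p53 4 and p53 5, and 4.01, 4.59 and 3.14 in the mixed tumors p53 1, p53 7 and pRbp53 4. The undifferentiated or spindle tumors ran from 2.92 to 3.63 with a median of 3.11. The 3 poorly differentiated tumors stood apart from all other samples, 4.38 ± 0.50 (SE) above control skin and 6.93 ± 0.32 (SE) above the undifferentiated or spindle tumors. Of the other 3 probesets of Ehf, 2 gave the same directions and 1 was flat, with group means between 3.33 and 3.44.

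Elf3, an Ets factor of simple and glandular epithelia, measured 5.63, 5.49, 5.73 and 5.52 in control skin and 8.0004, 8.25 and 6.79 in p53 2, p53 4 and p53 5. It was 5.87, 5.85 and 6.34 in the mixed tumors p53 1, p53 7 and pRbp53 4 and ran from 5.29 to 5.64 with a median of 5.38 in the undifferentiated or spindle tumors. These last overlapped control skin, with a difference of -0.17 ± 0.10 (SE), whereas all 3 mixed tumors lay above both groups. The poorly differentiated tumors were 2.09 ± 0.33 (SE) above control skin.

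Ehf, Elf3, Grhl2 and Tfap2c, the 4 regulators higher in the poorly differentiated tumors than in control skin, were read beside markers of other epithelia. The mean over 5 simple epithelium markers was 6.04 to 6.71 in control skin, 10.94 to 11.33 in the poorly differentiated, 7.84 to 8.58 in the mixed and 4.79 to 8.20 in the undifferentiated or spindle tumors. The mean over 6 mammary and milk genes was 4.12 to 7.25, 7.53 to 11.75, 4.18 to 5.19 and 4.12 to 8.29 in the same order. Csn2, which encodes beta-casein, was 11.65, 8.75 and 13.67 in the poorly differentiated tumors p53 2, p53 4 and p53 5, and it was also 9.83 in control skin 3 and 10.80 in p53 tumor 3. In those last samples Ehf was 5.77 and 3.63 and Elf3 was 5.73 and 5.64. Elf5, an Ets factor of mammary and other glandular epithelia, rose by 5.58 ± 0.65 (SE, limma adjusted p = 0.001748) in the poorly differentiated tumors against control skin. The mixed tumors exceeded control skin in the simple epithelium mean, but the regulators did not all follow. Ehf was below its control mean in p53 1, p53 7 and pRbp53 4 (-1.72, -1.15 and -2.59). Grhl2 and Tfap2c were below theirs in p53 1 and pRbp53 4 but not in p53 7. Elf3 was above its control mean in each mixed tumor (0.28, 0.26 and 0.75). The part of glandular tissue in these values was not tested.

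Esrp1, of the pair of splicing regulators, had the widest span of the 10 genes. It measured 10.94, 11.34, 11.31 and 11.31 in control skin, 11.29, 10.37 and 11.93 in p53 2, p53 4 and p53 5, and 6.88, 10.53 and 8.49 in the mixed tumors p53 1, p53 7 and pRbp53 4. The undifferentiated or spindle tumors ran from 3.68 to 4.37 with a median of 3.97. Every mixed tumor lay above every undifferentiated or spindle tumor, and the poorly differentiated tumors lay on both sides of control skin. The step from the poorly differentiated to the undifferentiated or spindle class was -7.22 ± 0.30 (SE), the largest of the 10 genes.

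Esrp2, its paralog, measured 9.99, 10.22, 10.32 and 10.33 in control skin and 10.002, 9.19 and 9.54 in p53 2, p53 4 and p53 5. The mixed tumors p53 1, p53 7 and pRbp53 4 gave 5.64, 8.85 and 6.20, and the undifferentiated or spindle tumors ran from 4.54 to 5.27 with a median of 4.71. The same order of classes held as for Esrp1, with a step of -4.76 ± 0.22 (SE) from the poorly differentiated to the undifferentiated or spindle tumors. Against control skin the poorly differentiated tumors were 0.64 ± 0.21 (SE) lower on this probeset and 0.09 ± 0.20 (SE) higher on the second, dimmer one.

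Transcripts that Esrp proteins splice did not follow as a group in total signal. Between the undifferentiated or spindle and the poorly differentiated tumors 0 of 9 measured transcripts passed in limma (4 had an unadjusted p under 0.05), with a median difference of -0.32 against 0.02 over all genes. Against control skin, Fgfr2, a receptor with an epithelial and a mesenchymal splice form, fell by 3.60 ± 0.27 (SE, limma adjusted p = 4.81e-06) in the undifferentiated or spindle tumors. Scrib, a polarity gene, fell by 0.52 ± 0.17 (SE, limma adjusted p = 0.0467), and Cd44, a hyaluronan receptor, rose by 0.96 ± 0.25 (SE, limma adjusted p = 0.0163). Among 13 other splicing regulators 8 rose in this comparison, where 14.3% of all genes were called higher, led by Rbfox2 with 1.47 ± 0.17 (SE, limma adjusted p = 1.61e-04), and 0 of 13 passed between the undifferentiated or spindle and the poorly differentiated tumors (5 had an unadjusted p under 0.05).

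Ovol1 measured 7.97, 8.28, 8.68 and 7.79 in control skin and 7.30, 7.41 and 5.48 in p53 2, p53 4 and p53 5. The mixed tumors p53 1, p53 7 and pRbp53 4 gave 4.72, 6.03 and 4.98, and the undifferentiated or spindle tumors ran from 4.13 to 4.39 with a median of 4.28. All poorly differentiated tumors were below all control skins and all mixed tumors were above all undifferentiated or spindle tumors, so the 4 classes formed steps in which only p53 tumor 5 and the mixed p53 7 crossed. The second probeset of Ovol1 had the same direction in each comparison. It was not called between the undifferentiated or spindle and the poorly differentiated tumors. Of 15 measured other epithelial transcription factors 3 fell from the poorly differentiated to the undifferentiated or spindle tumors. Of all genes 4.64% were called lower there. Elf5 fell by 6.63 ± 0.62 (SE, limma adjusted p = 5.19e-04), Zfp750, a keratinocyte differentiation factor, by 3.16 ± 0.22 (SE, limma adjusted p = 1.15e-04) and Ovol2, the paralog of Ovol1, by 1.44 ± 0.17 (SE, limma adjusted p = 0.00198).

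Trp63 measured 9.85, 10.40, 10.31 and 10.51 in control skin and 9.81, 10.36 and 3.84 in p53 2, p53 4 and p53 5. The mixed tumors p53 1, p53 7 and pRbp53 4 gave 9.72, 11.50 and 3.55, and the undifferentiated or spindle tumors ran from 3.78 to 5.61 with a median of 4.26. The poorly differentiated and the mixed class each held samples at the level of control skin and 1 sample at the level of the undifferentiated or spindle tumors. The undifferentiated or spindle minus the poorly differentiated tumors gave -3.56 ± 1.27 (SE), and -5.64 without p53 tumor 5. The 3 other probesets of Trp63 had the same direction in each comparison.

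Keratinocyte genes were read in the tumors where Trp63 parted from the other regulators. In p53 tumor 5, where Trp63 was 3.84, Krt5 was 4.76 and Krt14 was 4.41, the keratins of basal keratinocytes, against 12.72 to 13.04 and 12.90 to 13.18 in control skin. The same tumor had Esrp1 at 11.93 and Tfap2c at 11.10, both above all control skins, with the simple epithelial keratins Krt8 at 12.97 and Krt18 at 13.22. The mixed tumor p53 1 was the converse, with Trp63 at 9.72 and Krt14 at 12.05 beside Grhl1 at 3.89 and Esrp2 at 5.64. In the mixed tumor pRbp53 4, which had the lowest Trp63 of all samples at 3.55, Krt5 was 5.71 but Krt14 was 9.32, above all undifferentiated or spindle tumors (4.36 to 6.99). Keratin 14 thus did not follow Trp63 in every tumor, and each of these descriptions rests on 1 tumor.

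**Figure D2:**
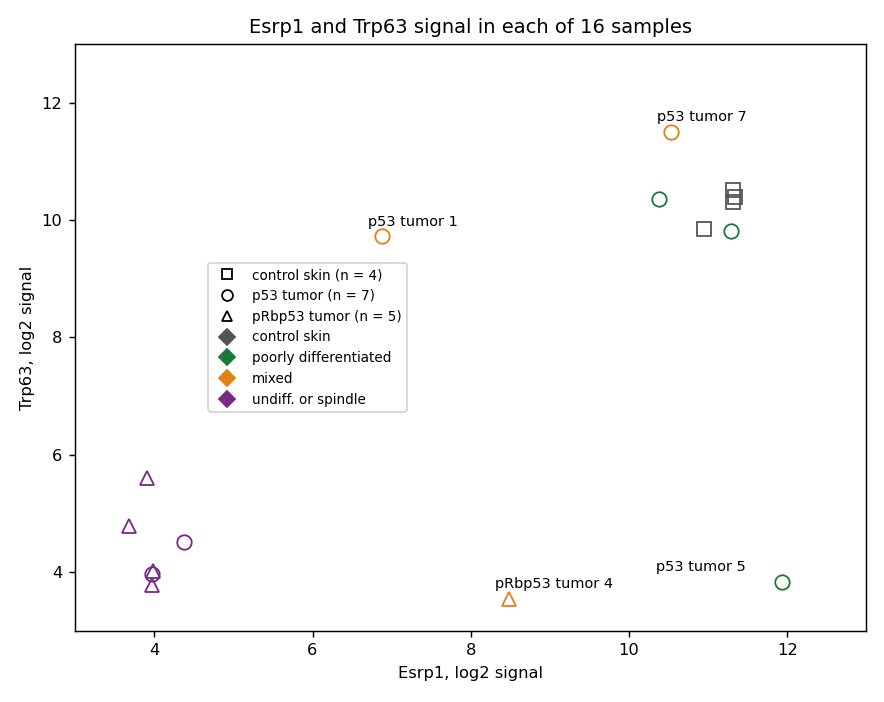
Log2 signal of Trp63 (vertical axis) against that of Esrp1 (horizontal axis) in all 16 samples, with 1 point a sample, coloured by histological class and shaped by genotype. The undifferentiated or spindle tumors are low on both axes, while p53 tumor 5 (Esrp1 11.93, Trp63 3.84), pRbp53 tumor 4 (Esrp1 8.49, Trp63 3.55) and p53 tumor 1 (Esrp1 6.88, Trp63 9.72) lie away from the other samples.

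Tfap2c measured 8.66, 9.45, 9.59 and 9.53 in control skin and 10.51, 10.50 and 11.10 in p53 2, p53 4 and p53 5. The mixed tumors p53 1, p53 7 and pRbp53 4 gave 6.22, 10.14 and 7.33, and the undifferentiated or spindle tumors ran from 3.52 to 4.62 with a median of 3.57. All poorly differentiated tumors were above all control skins, by 1.40 ± 0.27 (SE), and all undifferentiated or spindle tumors were below, by 5.57 ± 0.26 (SE). The other 2 probesets of Tfap2c had the same directions.

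Per tumor, the number of regulators within 1 log2 unit of the control mean ranged from 1 to 6. The poorly differentiated tumors p53 2, p53 4 and p53 5 had 6, 4 and 4 genes within this limit and 4, 4 and 3 above it. The mixed tumor p53 7 had 4 within the limit, 1 above it (Trp63) and 5 below it, whereas mixed p53 1 and pRbp53 4 each had 8 below it. In each of the 6 undifferentiated or spindle tumors 9 genes were more than 1 unit below control skin, all but Elf3. The mixed tumors were thus unlike each other, and p53 7, the one nearest to skin, was also an array with signs of RNA breakdown.

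**Figure D3:**
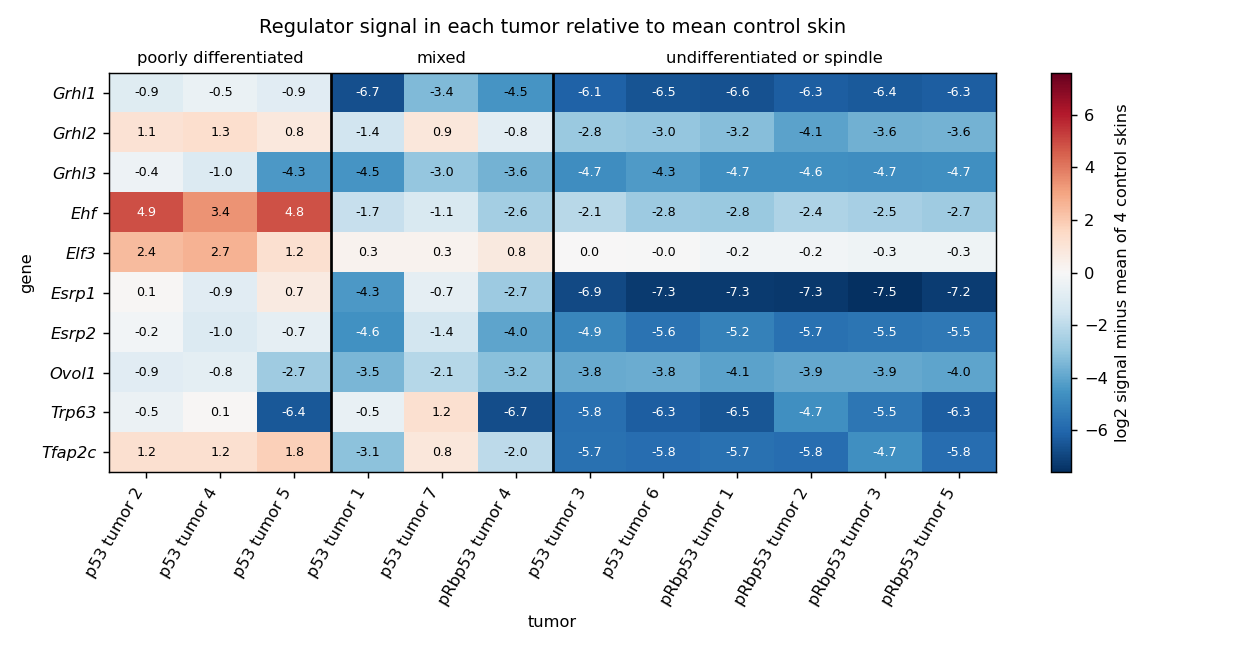
Log2 difference of each of the 10 genes (rows) from the mean of control skin in each of the 12 tumors (columns, ordered by histological class), with the value written in each cell. The 6 undifferentiated or spindle tumors are more than 1 unit below control skin for 9 genes, and p53 tumor 5 is below it for Grhl3, Ovol1 and Trp63.

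The study's comparisons were then fitted over all 45037 probesets with limma, a linear model with moderated errors. For all 12 tumors against 4 control skins, 4 of the 10 genes were called lower at an adjusted p of 0.05 (Grhl1, Grhl3, Esrp2 and Ovol1), where 9.17% of all genes were called lower. The median difference of the 10 was -3.37 against 0.06 over all genes, from -4.59 ± 1.21 (SE) for Grhl1 to 0.55 ± 0.50 (SE) for Elf3. As the differences from control skin were in view when the genes were chosen, nothing is read from these calls. Of the other probesets, 0 of 3 for Grhl2 and 1 of 3 for Ehf had the direction of the probeset that stood for the gene. Leaving out any 1 control skin left 2 calls, Grhl3 and Ovol1, and control skin 3 and p53 tumor 7 left out together did the same. Without p53 tumor 5 Esrp1 was called as well, and without p53 tumor 7 Trp63 was. The groups did not overlap for Grhl1, Grhl3 and Ovol1, lower in every tumor than in every control skin, as 5.54% of all genes were.

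For 6 undifferentiated or spindle against 3 poorly differentiated tumors, 8 of the 10 genes were called lower, all but Grhl3 and Trp63, where 4.64% of all genes were called lower. The groups did not overlap for the same 8 genes, as for 7.49% of all genes in that direction. Because the genes were chosen with this contrast known, nothing is read from these counts. All 3 poorly differentiated tumors were p53 tumors, and with p53 tumors alone (2 against 3) 6 were called, with the median at -4.29 against -4.60. Without p53 tumor 5, the tumor with low Grhl3 and Trp63, all 10 were called lower.

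**Figure D4:**
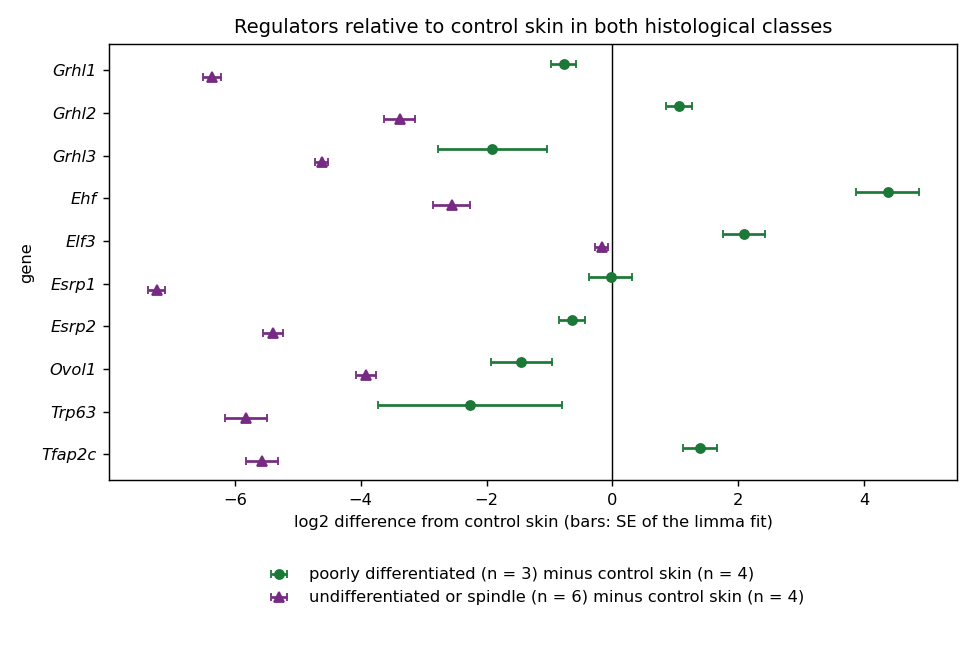
Log2 difference of each of the 10 genes (rows) between histological classes and control skin, with points for the limma estimate and bars for its SE. Ehf and Elf3 lie to the right of 0 for the poorly differentiated tumors against control skin (4.38 and 2.09), and 9 genes lie far to the left of 0 for the undifferentiated or spindle tumors.

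Against control skin, the 3 poorly differentiated tumors had 4 of the 10 genes called higher (Grhl2, Ehf, Elf3 and Tfap2c), where 8.39% of all genes were, and 1 called lower (Grhl1), where 10.8% were. The call of Grhl1 was lost without control skin 2, 3 or 4 and without p53 tumor 2 or 5, and 0 genes were then called lower, except that without p53 tumor 2 Esrp2 was called instead. The 6 undifferentiated or spindle tumors had 9 called lower, all but Elf3, where 15.5% of all genes were. These comparisons and that of all tumors share the control skins, and their counts describe the chosen genes only.

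Of the 10 genes 0 were called by limma between 3 mixed and 6 undifferentiated or spindle tumors, where 0.0275% of all genes were called higher. The test of the study's methods, run per probeset, also called 0, while all 10 had an unadjusted limma p under 0.05. The share of all genes under that unadjusted limit was not counted. Grhl2, Elf3, Esrp1, Esrp2, Ovol1 and Tfap2c (6 genes) were higher in every mixed than in every undifferentiated or spindle tumor, as 3.85% of all genes were. As the genes were chosen with differences between histological classes in view, nothing is read from these counts. The median difference of the 10 was 1.79, from 0.60 to 4.65, and without p53 tumor 1, 5 of the 10 were called higher. Without p53 tumor 7 the median was 0.93 and Esrp1 was called, and without pRbp53 tumor 4 Trp63 was called.

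The comparison by genotype asks whether loss of pRb beside p53 goes with other levels. All 10 genes were lower in the pRbp53 than in the p53 tumors (n = 5 and 7), by a median of 2.57, and 0 passed at the adjusted p of 0.1 that was used for this comparison, where 0.159% of all genes passed in either direction. The test of the study's methods passed 0 as well, and 7 of the 10 had an unadjusted limma p under 0.05. The share of all genes under that unadjusted limit was not counted. The genes were also chosen with differences between histological classes in view, so nothing is read from the 7. The difference ran from -1.03 ± 0.51 (SE, limma adjusted p = 0.565) for Elf3 to -3.67 ± 1.58 (SE, limma adjusted p = 0.505) for Esrp1. Genotype and histology were largely bound together, with no poorly differentiated pRbp53 tumor. With histological class as a covariate the median difference was -0.25, with Trp63 the lowest at -2.15 ± 1.66 (SE, limma adjusted p = 0.833), and within the undifferentiated or spindle tumors alone (4 against 2) it was -0.16. In the latter fit the difference of Grhl2 was -0.74 ± 0.24 (SE, limma adjusted p = 0.334), and Trp63 and Tfap2c were higher in the pRbp53 tumors by 0.31 ± 0.54 and 0.24 ± 0.35 (SE).

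**Figure D5:**
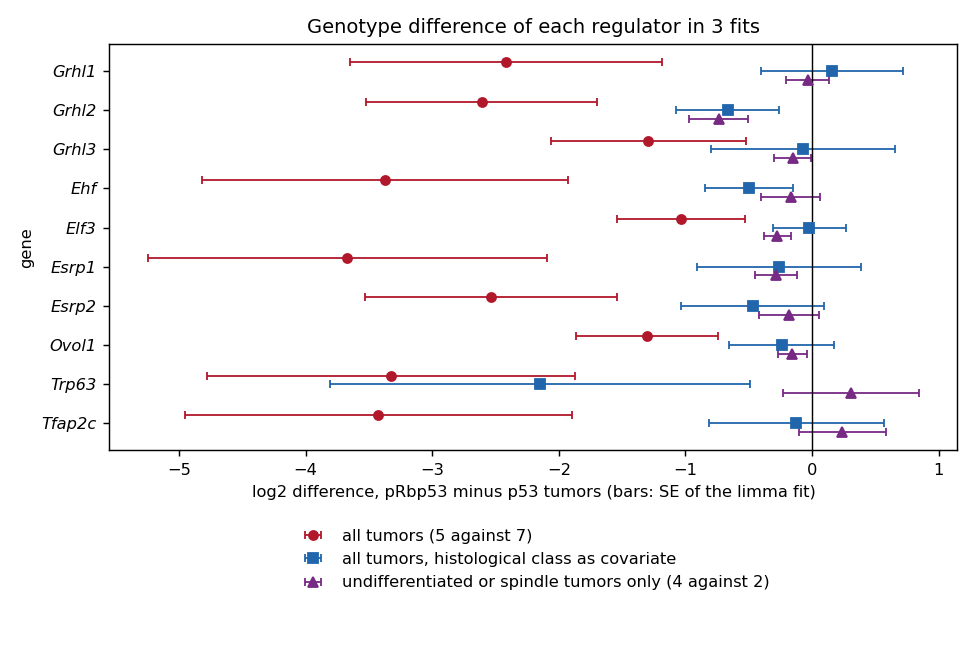
Log2 difference of each of the 10 genes (rows) between pRbp53 and p53 tumors in all 12 tumors, with histological class as a covariate, and within the undifferentiated or spindle tumors, with points for the limma estimate and bars for its SE. The median over the genes is -2.57, -0.25 and -0.16 in the 3 fits.

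Genes that these regulators are known to control were counted from fixed lists. Of 21 measured junction and membrane genes 20 fell from the poorly differentiated to the undifferentiated or spindle tumors, where 4.64% of all genes were called lower, with a median of -4.31 against 0.02 over all genes. Dsp, the desmosomal plakin, fell by 7.499 ± 0.45 (SE, limma adjusted p = 4.48e-05), Epcam, an adhesion molecule, by 6.96 ± 0.48 (SE, limma adjusted p = 1.05e-04) and Cdh1, E-cadherin, by 6.09 ± 0.50 (SE, limma adjusted p = 2.58e-04). Cdh3 was the 1 that did not pass, at -1.40 ± 0.45 (SE, limma adjusted p = 0.09999). In the poorly differentiated tumors against control skin 8 of the 21 rose, where 8.39% of all genes were called higher, led by the claudin Cldn7 with 5.84 ± 0.49 (SE, limma adjusted p = 4.00e-04), and 2 fell, Ppl and Dsp.

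Keratinocyte targets of p63 and Grhl factors had a different count. From the poorly differentiated to the undifferentiated or spindle tumors 2 of 14 fell, where 4.64% of all genes were called lower. Perp, a desmosomal p63 target, fell by 5.02 ± 1.02 (SE, limma adjusted p = 0.0206) and Itgb4, an integrin of hemidesmosomes, by 3.09 ± 0.28 (SE, limma adjusted p = 4.72e-04). Krt5 and Krt14 did not pass there, at -3.74 ± 1.28 and -4.91 ± 1.73 (SE), and in p53 tumor 5 both were at the level of the other class. Against control skin 12 of the 14 fell in the undifferentiated or spindle tumors, where 15.5% of all genes were called lower. By genotype 1 of 14 passed, where 0.159% of all genes passed in either direction. It was Itga6, an integrin of basal keratinocytes, lower in the pRbp53 tumors by 2.13 ± 0.32 (SE, limma adjusted p = 0.0306). As 4 of the 5 pRbp53 tumors were spindle cell carcinomas and none was poorly differentiated, genotype and histology were largely bound together in this fit. Within the undifferentiated or spindle class Itga6 was 11.78 and 10.11 in p53 3 and p53 6, against 8.28 to 9.31 in the pRbp53 tumors. Within the mixed class it was 10.34 and 11.41 in p53 1 and p53 7, against 9.48 in pRbp53 4. These are few tumors, and the part of genotype in the values was not tested.

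Of 10 measured repressors of the epithelial state, 5 rose from the poorly differentiated to the undifferentiated or spindle tumors, where 4.49% of all genes were called higher. These were Prrx1 by 3.46 ± 0.44, Zeb1 by 3.27 ± 0.30, Twist2 by 3.16 ± 0.59, Snai1 by 3.02 ± 0.51 and Zeb2 by 2.69 ± 0.45 (SE). The other 5 did not pass, among them Snai2 at 0.22 ± 1.11 (SE). The reference class was itself low, since 4 of the 10 were called lower in the poorly differentiated tumors than in control skin. These were Prrx1 (-3.19), Twist2 (-3.06), Zeb1 (-2.16) and Zeb2 (-2.13), where 10.8% of all genes were called lower. In the undifferentiated or spindle tumors against control skin 3 of the 10 were called higher, where 14.3% of all genes were. Zeb1 measured 8.88 to 9.20 in control skin, 6.84, 7.22 and 6.48 in p53 2, p53 4 and p53 5, 10.18, 7.76 and 9.19 in the mixed tumors p53 1, p53 7 and pRbp53 4, and 9.26 to 10.58 in the undifferentiated or spindle tumors. The mean over 8 fibroblast markers was 11.99 to 12.59 in control skin, 8.28 to 10.73 in the poorly differentiated, 10.62 to 12.10 in the mixed and 11.45 to 13.24 in the undifferentiated or spindle tumors. The mean over 8 leukocyte markers was 8.32 to 9.83, 7.27 to 7.99, 7.12 to 9.54 and 9.02 to 9.91 in the same order. From the poorly differentiated to the undifferentiated or spindle tumors 5 of the 8 fibroblast and 7 of the 8 leukocyte markers rose, against 4.49% of all genes. The part of stroma and leukocytes in these values was not tested.

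Over the 12 tumors the 10 genes varied together, apart from Trp63. Esrp1 and Tfap2c were the closest pair (Pearson r = 0.99 over 12 tumors), and the correlation of Trp63 with the other 9 ran from 0.42 with Ehf to 0.73 with Ovol1. Within the 6 poorly differentiated and mixed tumors Trp63 and Esrp1 had r = -0.05, while Esrp2 and Tfap2c had r = 0.98. Grhl3 was also less close to the others there, with r = 0.44 to Esrp1. The genes outside the group whose levels were most like the mean of the 10 over the 12 tumors were Map7 (r = 0.99), a microtubule-associated protein, then Epb41l5, Nfe2l3, Ifnlr1, Kyat1, Celsr2, Large2, Erbb3, Gm16136 and Ripk4 (r = 0.97 for the last). These correlations share the arrays and the split between histological classes and are a description.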

How the data were processed

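RNA from 4 control skins and 12 tumors was hybridised to Affymetrix MOE430 2.0 arrays, 1 a sample. The deposited values are log2 signals that the authors made with RMA, a method that subtracts background, gives all arrays 1 distribution of values and combines probes into probesets. The version of RMA was not stated. RMA leaves no detection call. Precision is limited by the number of arrays. Groups came from the titles and histology from the labels.

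Of 45101 probesets, 64 array controls were left out. An annotation of the array from 2016 gave 1 symbol to 34945 of the 45037 tested probesets, several to 932 and none to 9160. The probeset with the highest mean over the 16 samples stood for its gene. Models were fitted with limma 3.58.1 in R 4.3.3, two-sided, with eBayes errors and p-values adjusted by Benjamini-Hochberg over the 45037 probesets, at 0.05, or 0.1 for genotype. The study's own t-test was run as a Welch test. The fit was tested on simulated data.

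The 10 genes and all lists were chosen with earlier results of these data known. All 10 are named, and every probeset of theirs was fitted. From each list the text names up to 4 genes with the largest difference among those that passed (all where 5 or fewer passed), and the 10 genes of highest Pearson r with the mean of the 10 over the tumors. Csn2, the keratins and Itga6 in single samples, Cdh3, Snai2, and Ppl and Dsp against control skin were chosen after their values were seen.

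Alternatives were the replicate block, quantile normalization, median centring, brighter probesets, another prior, array weights, the median of a gene's probesets, the Welch test, genotype or histology as a covariate, subsets of tumors and leaving out arrays. Averaging control skins 2 and 4 was chosen after seeing the data. Figures were drawn with matplotlib 3.10.9.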

Additional observations from a re-analysis of the deposited data

Results flagged for a closer look

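Over 40 groups (the 10 genes in control skin, the p53 tumors, the pRbp53 tumors and the undifferentiated or spindle tumors), 11 had 1 sample far from the others by Dixon's test. Chance flags about 1 in 20 groups.

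The mixed tumor pRbp53 4 was the highest of the 5 pRbp53 tumors for 7 genes, the other 4 tumors of that group being spindle cell carcinomas. It measured 6.10 for Grhl1 (next 4.33), 7.77 for Grhl2 (next 5.35), 5.20 for Grhl3 (next 4.18) and 6.34 for Elf3 (next 5.38). It also measured 8.49 for Esrp1 (next 3.98), 4.98 for Ovol1 (next 4.29) and 7.33 for Tfap2c (next 4.62). The same tumor had the lowest Trp63 of all 16 samples, at 3.55.

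Control skin 1 was the lowest of the 4 control skins for Esrp1, at 10.94 against 11.31 for the next, and for Tfap2c, at 8.66 against 9.45. Among the 6 undifferentiated or spindle tumors, p53 tumor 6 was the highest for Grhl3, at 4.49 against 4.18, and pRbp53 tumor 3 was the highest for Tfap2c, at 4.62 against 3.63.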

How the results depend on the processing

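For undifferentiated or spindle tumors against control skin, 9 genes were called lower under every alternative but the brighter probesets, which left out Ehf and called 8. The median over the genes was -5.40 among brighter probesets and -3.51 with the median of a gene's probesets, against -5.01. For all tumors against control skin, 4 genes were called lower, but 6 by the Welch test, 8 with array weights, 9 with pRbp53 tumors only, and 2 with p53 tumors only, with control skin 3 and p53 tumor 7 left out, or with control skins 2 and 4 averaged. There Ehf was 0.24 with the median of its probesets and 0.77 with p53 tumors only, and Elf3 was -0.0551 with pRbp53 tumors only, each with the sign turned.

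For undifferentiated or spindle against poorly differentiated tumors, 8 genes were called lower but 4 by the Welch test. The median, -4.60, was -4.44 among brighter probesets, -2.93 with the median of a gene's probesets and -4.29 with genotype as a covariate or p53 tumors only. The replicate numbers did not pair the samples, since 3 of 13 pairs of the same number had deviations that correlated above 0.1. With the number as a replicate block this comparison had 0 genes called and a median of -4.94. No paired analysis was possible for mixed against undifferentiated or spindle tumors because they share fewer than 2 numbers.

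For poorly differentiated tumors against control skin, 1 gene was called lower, but 0 by the Welch test, with control skin 3 left out or with control skins 2 and 4 averaged, and 4 were called higher but 0 by the Welch test. The median of -0.33 was -0.64 among brighter probesets. Esrp1, at -0.03, turned to 0.0027 with median centring, 0.0010 without control skin 3, 0.0089 without control skin 2, 0.38 without p53 tumor 4 (the lowest without 1 array being -0.3965) and 0.0041 with control skins 2 and 4 averaged. For mixed against undifferentiated or spindle tumors, 1 gene was called higher among brighter probesets and 1 without p53 tumor 7, and the median was 1.07 with the median of a gene's probesets and 0.93 without p53 tumor 7.

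By genotype the median was -0.25 with histology as a covariate and -0.16 within the undifferentiated or spindle tumors. Grhl1 turned to 0.16 in the first, and Trp63 to 0.31 and Tfap2c to 0.24 in the second. The causes were not tested. Leaving out each array in turn gave 2 to 5 calls for all tumors against control skin, 8 to 10 by differentiation, 0 to 1 lower for the poorly differentiated tumors against control skin and 0 to 5 for the mixed tumors. The medians ran from -3.63 to -3.24, -5.21 to -4.48, -0.42 to -0.0305 and 0.93 to 2.57 in the same order, from -5.08 to -4.97 for the undifferentiated or spindle tumors against control skin and from -3.03 to -2.24 by genotype.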
